A study of Mus musculus with 8 samples.

Results

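The receptor for interleukin 2 and the signalling chain behind it were followed through 9 genes. They were the receptor chains Il2ra, Il2rb and Il2rg, the signal transducers Stat5a and Stat5b, and the Janus kinases Jak1, Jak2, Jak3 and Tyk2. Jak1 and Jak3 are the kinases of this receptor, and Jak2 and Tyk2 are family members that serve other receptors. All 9 were found by symbol among the 21524 genes of the deposited table, and all 9 passed the filter on low values and were tested. The RNA came from regulatory T cells (Tregs) that had been flow-sorted from mouse spleen, with 4 libraries labelled IL-2 (41 to 44) and 4 labelled control (45 to 48). The labels give tissue and treatment only: strain, genotype, age, dose, time, sorting gate, graft, what the controls received and whether each library was a separate animal are not stated. The series as a whole studied mIL-2, an IL-2 mutein, given with CTLA-4 Ig to mice carrying heart or kidney transplants, but the labels do not say that these IL-2 samples received the mutein, CTLA-4 Ig or a graft. The p-values therefore measure the spread between these libraries, which may be technical.

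As background, the alpha chain (CD25, Il2ra) captures IL-2 with no signalling tail of its own, while the beta chain (CD122, Il2rb) and the common gamma chain (CD132, Il2rg) carry the signal across the membrane. Jak1 is bound to the beta chain and Jak3 to the common gamma chain; when IL-2 brings the chains together the kinases phosphorylate each other and the receptor, and STAT5 is recruited, phosphorylated and moved to the nucleus. Tregs carry CD25 constantly and make little or no IL-2 themselves, so they depend on IL-2 from other cells. Jak2 and Tyk2 belong to the same kinase family but serve other cytokine receptors, among them those for interferons and for IL-12.

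Promoter sequence is shown for 3 members that differ in their response: Il2ra, the member with the largest rise, Il2rg, the receptor chain with the smallest difference, and Stat5b, the member with the largest fall. Each is the 250 bases before an annotated start site, 5′ to 3′ on the gene's strand, from RefSeq on GRCm38.p6 (the submitters' processing notes name GRCm39, so these positions belong to the sequence table only). They are Il2ra at chr2:11642542-11642791 on the plus strand, Il2rg at chrX:101268256-101268505 on the minus strand and Stat5b at chr11:100850582-100850831 on the minus strand. Capitals mark matches to the NF-kB consensus.
Il2ra: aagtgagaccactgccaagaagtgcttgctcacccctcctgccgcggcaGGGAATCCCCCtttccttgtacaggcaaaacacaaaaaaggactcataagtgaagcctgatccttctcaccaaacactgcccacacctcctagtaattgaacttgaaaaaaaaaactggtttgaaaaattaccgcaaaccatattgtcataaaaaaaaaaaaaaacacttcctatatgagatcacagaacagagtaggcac
Il2rg: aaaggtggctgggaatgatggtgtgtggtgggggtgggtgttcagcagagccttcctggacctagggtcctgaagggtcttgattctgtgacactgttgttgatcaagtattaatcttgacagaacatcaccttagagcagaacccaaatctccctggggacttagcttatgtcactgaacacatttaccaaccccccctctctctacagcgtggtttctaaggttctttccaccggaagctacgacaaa
Stat5b: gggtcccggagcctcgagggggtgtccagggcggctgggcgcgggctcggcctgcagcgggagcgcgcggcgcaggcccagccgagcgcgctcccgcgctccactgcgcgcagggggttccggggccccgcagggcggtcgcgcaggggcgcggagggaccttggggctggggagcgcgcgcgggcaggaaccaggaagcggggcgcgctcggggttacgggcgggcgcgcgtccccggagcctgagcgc
Windows were at hand for 8 members, 10 windows in all since Stat5a and Stat5b have more than 1 annotated start; Il2rb had no entry. The STAT palindrome TTCNNNGAA, searched on both strands, was in 0 of the 10 windows and in 7.02% of all 32851 windows of the same length. The form with a longer gap, TTCNNNNGAA, was also in 0 of 10 and in 5.85% of all windows. The NF-kB consensus was matched in 2 of 10, in Il2ra (2 overlapping matches, the first from -201 to -192 relative to the start) and at 1 start of Stat5a, against 7.25% of all windows. The windows differ in base composition: G and C made up 42.4% of the Il2ra window, 49.2% of that of Il2rg and 82.0% of that of Stat5b (46.4% at its other start), where the median of all windows was 52.4%.

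Values are normalised reads recovered from the deposited variance-stabilised table, so that 1 unit is about 1 read in a library of average size. The reads of a library summed to between 4953547 and 6399418 in the IL-2 group and to between 4970820 and 6147506 in the control group, as recovered. The Y-linked transcript Ddx3y had 0 reads in IL-2 libraries 41 and 42 and control library 45, and 216 to 460 in the other 5. Among 6 markers of T cells and Tregs, Foxp3, Ctla4, Cd3e and Ikzf2 were present in every library and did not pass the test between groups. Tnfrsf18 rose, and Cd4 was lower with IL-2 (2523 ± 354 against 4136 ± 299.6 normalised reads, SD, n = 4 each, limma adjusted p = 1.49e-04). Foxp3, Ctla4 and Tnfrsf18 also stand in the list of STAT5 target genes below.

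The 9 genes differed in direction. All 3 receptor chains passed as higher with IL-2, and of the kinases and STAT5 genes 4 passed as lower, Jak2, Jak3, Tyk2 and Stat5b, while Jak1 and Stat5a did not pass (limma on the deposited values, adjusted over all 5261 tested genes). That makes 7 of 9 called, where 31.4% of all tested genes were called, 16.8% as higher and 14.6% as lower. Every member had a mean above that of at least 50.6% of the tested genes, and no share was taken over genes of like level. The groups did not overlap for 4 members, Il2ra and Il2rb above and Jak2 and Stat5b below the controls, where 31.5% of tested genes did not overlap. Those 4 kept their call under every alternative run, and Il2rg, Jak3 and Tyk2 did not. The plot of normalised reads by library shows the separation gene by gene.

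**Figure D1:**
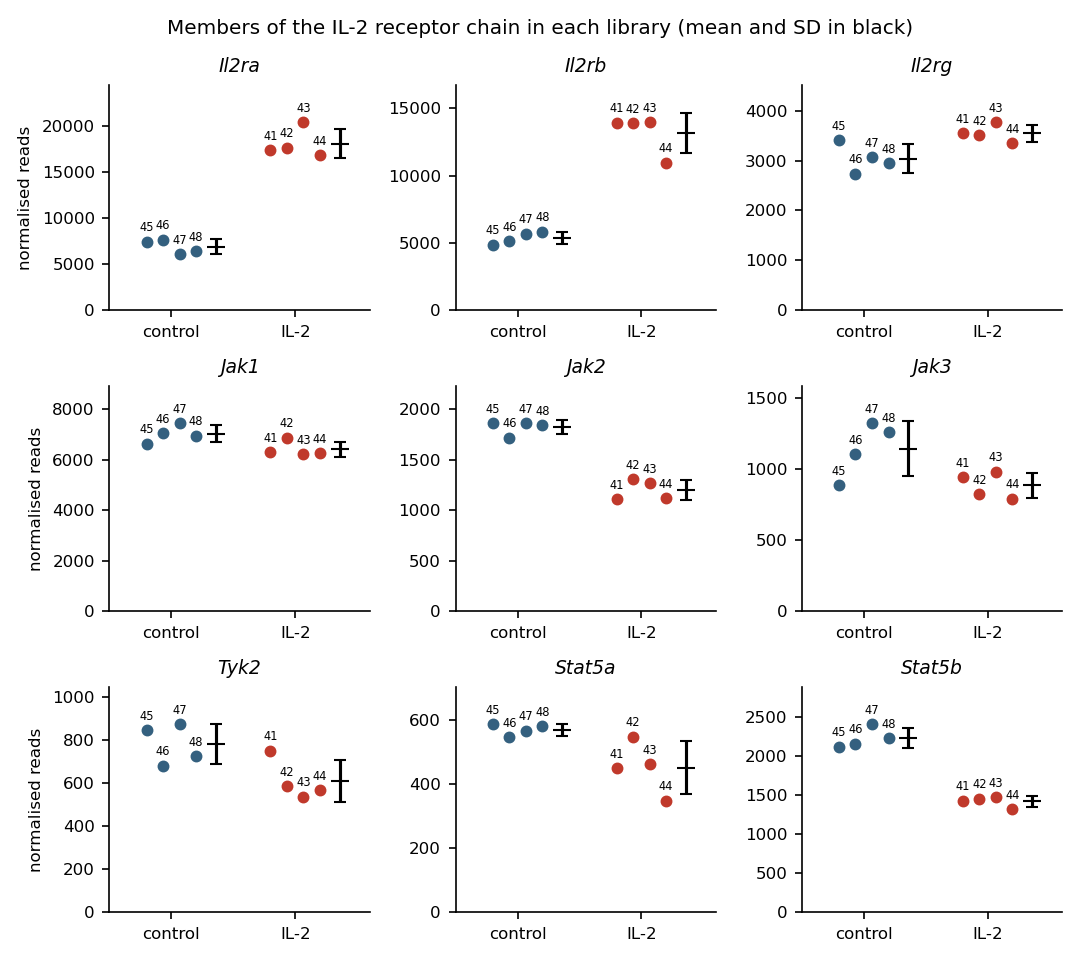
Normalised reads (y axis, from 0) of the 9 members in the 4 control libraries (blue, 45 to 48) and the 4 IL-2 libraries (red, 41 to 44), with the mean and SD in black. Il2ra and Il2rb lie above all controls in every IL-2 library and Jak2 and Stat5b below, while the groups overlap for the other 5 genes.

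Il2ra, the chain that makes the receptor high in affinity, stood at 17425, 17687, 20453 and 16865 normalised reads in IL-2 libraries 41 to 44 and at 7486, 7703, 6094 and 6456 in control libraries 45 to 48. The lowest IL-2 library held more than 2 times the reads of the highest control library. Fitted on log2 normalised reads the rise was 2.62-fold (95% interval 2.30 to 2.97). On the deposited scale it was 1.29 ± 0.08 SE (limma adjusted p = 3.11e-07), rank 15 from the top of the tested genes. Ranks here and below order the differences on that scale, which understates folds of low genes. Cish, at 3.59-fold, had a difference of 0.84 on it.

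Il2rb, which is also part of the IL-15 receptor, gave 13933, 13887, 13963 and 10949 with IL-2 and 4881, 5122, 5678 and 5829 in controls. Library 44 stood apart below the other 3 IL-2 libraries, which lay from 13887 to 13963, and was still above every control. The rise was 2.44-fold (95% interval 2.14 to 2.79; 1.18 ± 0.08 SE on the deposited scale, limma adjusted p = 8.99e-07), rank 18. Without library 44 the difference on that scale was 1.26.

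Il2rg, the chain shared with the receptors for IL-4, IL-7, IL-9, IL-15 and IL-21, moved far less. Its values were 3550, 3504, 3768 and 3352 with IL-2 and 3412, 2734, 3068 and 2941 in controls, and control library 45 lay above IL-2 library 44. The difference was 1.17-fold (95% interval 1.04 to 1.31) and passed narrowly (limma adjusted p = 0.0405). It did not pass without any 1 of IL-2 libraries 41, 42 and 43 or control libraries 46, 47 and 48 (limma adjusted p = 0.0647 to 0.120). Nor did it pass with the presence of Ddx3y in the fit (limma adjusted p = 0.0746) or under quantile normalization (limma adjusted p = 0.166). Il2rg is X-linked. With the Ddx3y term its difference on the deposited scale was 0.16, against 0.18 without it, and the effect of that term itself was not tested. In the GENCODE M21 annotation 42.0% of the 31-base words of Il2rg transcripts also occur in Gm20489, so Il2rg reads may be divided. The deposited table holds no values under the name Gm20489.

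Within a library, the ratio of 2 genes does not depend on how libraries were scaled. The ratio of Il2ra to Il2rg reads was 4.91, 5.05, 5.43 and 5.03 in IL-2 libraries 41 to 44, against 2.19, 2.82, 1.99 and 2.20 in control libraries 45 to 48. That is a 2.24-fold shift with no overlap (two-sided exact permutation p = 0.0286, the smallest that 4 against 4 libraries allow, and 0.0571 adjusted over the 4 ratios tested). Il2rb to Il2rg moved from 1.43, 1.87, 1.85 and 1.98 in controls to 3.93, 3.96, 3.71 and 3.27, a 2.09-fold shift with the same exact p = 0.0286 (0.0571 adjusted). Both chains thus lay higher relative to the shared chain in each IL-2 library than in any control, as the plot of within-library ratios shows, although neither passed 0.05 after adjustment, since with 4 ratios at this n at least 3 would have to be at the smallest p.

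**Figure D2:**
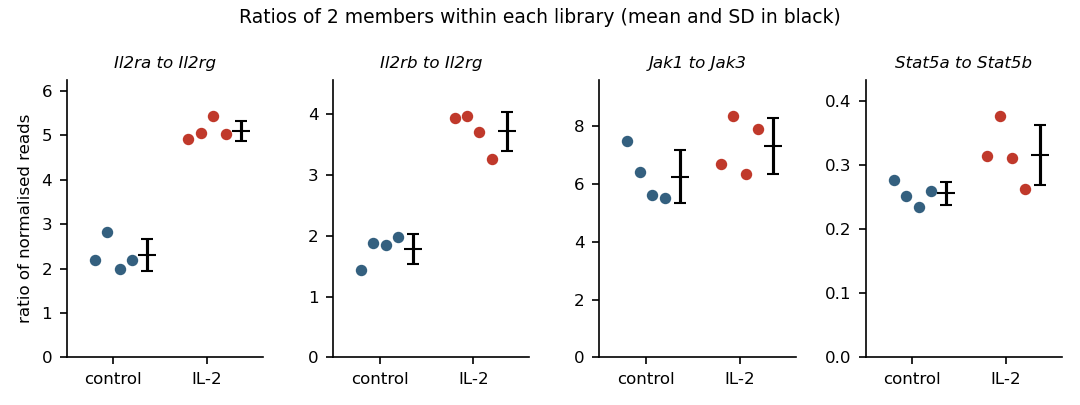
Ratio of the normalised reads of 2 members (y axis, from 0) in each of 4 control (blue) and 4 IL-2 (red) libraries, with mean and SD in black. The ratios of Il2ra and of Il2rb to Il2rg separate the groups, while Jak1 to Jak3 and Stat5a to Stat5b overlap.

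Jak1, the kinase of the beta chain and the kinase gene with the most reads, gave 6297, 6877, 6216 and 6275 with IL-2 and 6645, 7060, 7456 and 6958 in controls. The ranges overlapped through IL-2 library 42. It did not pass (limma adjusted p = 0.121), and its interval, 0.834-fold to 0.999-fold on log2 normalised reads, lies below 1 only just at its upper end. Under quantile normalization alone it passed as lower (-0.24, limma adjusted p = 0.00171).

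Jak3, the kinase of the common gamma chain, had 943, 824, 982 and 794 reads with IL-2 and 889, 1104, 1324 and 1262 in controls. Control library 45 fell inside the IL-2 range. The fall of 22.6% in the mean passed narrowly (limma adjusted p = 0.0462), and it did not pass without any 1 of IL-2 libraries 41, 42 and 44 or control libraries 46, 47 and 48 (limma adjusted p = 0.0602 to 0.131). In GENCODE M21 8.43% of the 31-base words of Jak3 transcripts occur also in its neighbour Insl3, which had 61.4 ± 38.7 normalised reads against 94.0 ± 27.7 in the controls. For Jak1 to Jak3 the ratio was 7.31 ± 0.963 in the IL-2 libraries against 6.25 ± 0.906 (two-sided exact permutation p = 0.143, n = 4 each), so the kinases of the beta and gamma chains were not shown to shift against each other.

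Jak2, a kinase used by the receptors for interferon gamma and IL-12 among others, showed the clearest kinase difference. Its values were 1108, 1308, 1270 and 1119 with IL-2 and 1861, 1716, 1858 and 1842 in controls, so that every IL-2 library lay below every control. Its level was 0.660-fold that of controls (95% interval 0.585 to 0.745; -0.41 ± 0.05 SE on the deposited scale, limma adjusted p = 1.35e-04), which placed it at rank 141 from the bottom of the 5261 tested genes.

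Tyk2, the kinase of the type I interferon and IL-12 receptors, had 751, 586, 537 and 567 reads with IL-2 and 846, 682, 874 and 725 in controls. IL-2 library 41 lay within the control range. At 0.780-fold the control mean it passed narrowly as lower (limma adjusted p = 0.0454), and it did not pass without any 1 of IL-2 libraries 42, 43 and 44 or control libraries 45, 47 and 48 (limma adjusted p = 0.0551 to 0.122). Taken as shares of all JAK reads in a library, Jak1 made up 69.0% to 71.7% with IL-2 and 64.5% to 66.8% in controls. Jak2 made up 12.2% to 14.1% against 16.1% to 18.2%, and the shares of Jak3 and Tyk2 overlapped between groups. The share of Jak1 was higher although its mean reads were not, at 6416 ± 309 with IL-2 and 7030 ± 335 in controls.

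Stat5b, the STAT5 gene with more reads, gave 1431, 1455, 1478 and 1325 with IL-2 and 2122, 2164, 2412 and 2231 in controls, again without overlap. Its level was 0.638-fold that of controls (95% interval 0.572 to 0.712; -0.47 ± 0.05 SE on the deposited scale, limma adjusted p = 3.99e-05), rank 104 from the bottom. Stat5a had 450, 549, 462 and 349 with IL-2 and 588, 547, 567 and 581 in controls. IL-2 library 42 lay 2 reads above control library 46, and the other 3 IL-2 libraries lay below all controls. The unadjusted 95% interval of Stat5a on log2 normalised reads was 0.645-fold to 0.953-fold. On the deposited values Stat5a did not pass (limma adjusted p = 0.0566) and did without library 42 (limma adjusted p = 0.0184). It also passed as lower with median centring, quantile normalization and the Ddx3y term (limma adjusted p = 0.0449, 0.0426 and 0.0358).

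The 2 STAT5 genes are closely related neighbours that share part of their sequence, so that some reads cannot be assigned to 1 of them: in GENCODE M21 20.2% of the 31-base words of Stat5a transcripts occur also in Stat5b, and 15.2% of those of Stat5b in Stat5a. Their sum does not depend on that division. It was 1881, 2004, 1940 and 1674 with IL-2 and 2710, 2711, 2979 and 2813 in controls, or 1875 ± 143 against 2803 ± 127 with no overlap (log2 difference -0.58, two-sided exact permutation p = 0.0286, n = 4 each, the smallest possible). The groups overlapped in the ratio of Stat5a to Stat5b, 0.317 ± 0.0467 against 0.256 ± 0.0176 (two-sided exact permutation p = 0.0571, 0.0762 adjusted over the 4 ratios). Without IL-2 library 44 that ratio no longer overlapped (exact permutation p = 0.0286).

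**Figure D3:**
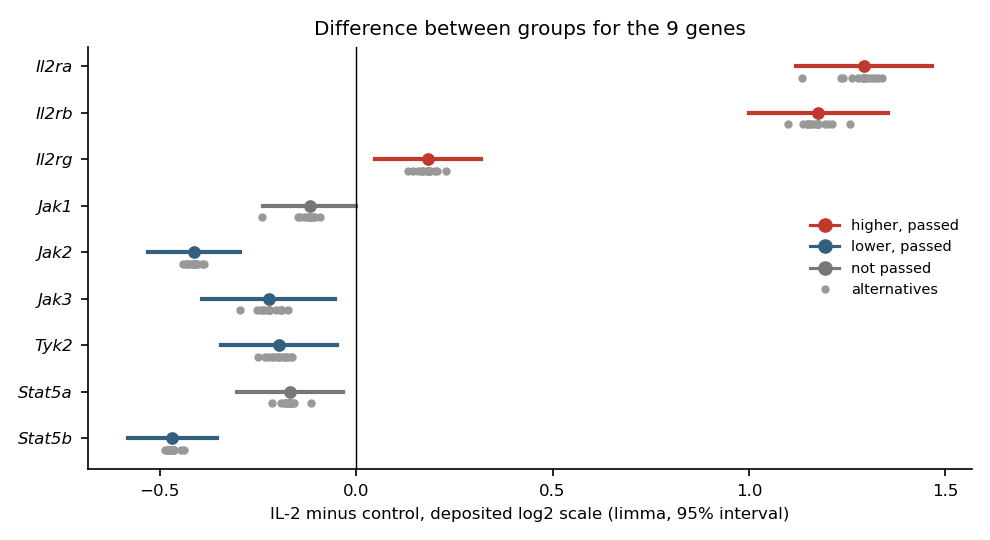
Difference between IL-2 and control on the deposited log2 scale (x axis) for each member, with the limma estimate and 95% interval (red higher, blue lower, grey not passed) and, in small grey points under it, the estimates under the other settings on that scale. Il2ra and Il2rb lie above 1, and Jak2 and Stat5b at -0.41 and -0.47, with every alternative on the same side of 0.

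Compared per length of the longest coding transcript in GENCODE M21 (GRCm38, not the authors' annotation), the order of the levels changed between the groups. In controls Il2rg led with 1820 ± 170 normalised reads per kb, followed by Il2ra (1572 ± 177), Jak1 (1433 ± 68.2) and Il2rb (1282 ± 107). Il2rg overlapped Il2ra, Il2ra overlapped Jak1 and Jak1 overlapped Il2rb, while Il2rb lay above Stat5b without overlap. With IL-2, Il2ra had 4104 ± 363, Il2rb 3143 ± 355, Il2rg 2122 ± 103 and Jak1 1308 ± 63.0, and none of these overlapped the next. Stat5b, Jak2, Jak3, Tyk2 and Stat5a followed in that order in both groups, from 428 ± 24.6 down to 147 ± 4.71 per kb in controls and from 273 ± 13.0 down to 116 ± 21.1 with IL-2. Tyk2 and Stat5a overlapped in both groups, and Stat5b, Jak2 and Jak3 overlapped their neighbours with IL-2 only. With the median coding transcript length instead, Jak1 stood above Il2ra in controls and no other place changed.

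**Figure D4:**
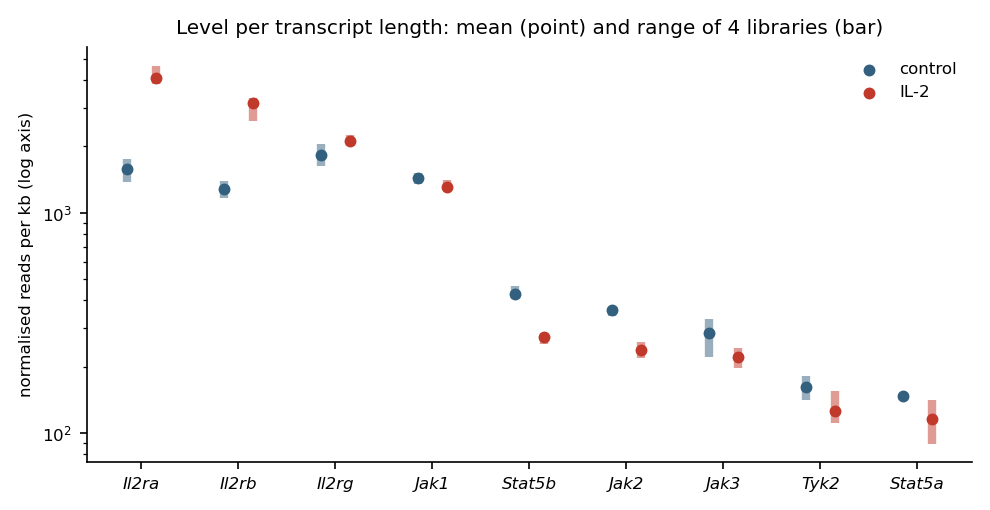
Normalised reads per kb of transcript (log axis) for each member, ordered by the IL-2 group, with the mean as a point and the range of 4 libraries as a bar (blue control, red IL-2). The 3 receptor chains and Jak1 lie between 1164 and 2043 in controls and spread from 1267 to 4636 with IL-2, above the other 5 genes in both groups.

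The spread among libraries of 1 group differed between members. The coefficient of variation was lowest for Stat5a in controls (3.21%) and highest for the same gene with IL-2 (18.1%). IL-2 library 44 was the lowest of its group for 6 of the 9 genes, Il2ra, Il2rb, Il2rg, Jak3, Stat5a and Stat5b, and the highest for none. That library also held the most reads of the proliferation gene Mki67, 13044 against 5332 to 6142 in the other IL-2 libraries. Control libraries 45 to 48 held 2810, 3209, 2845 and 4271, so every IL-2 library lay above every control for Mki67. The part of proliferation in the members' values was not tested.

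Other genes of the pathway were read from lists drawn up by function. Their counts stand beside 16.8% of all tested genes called as higher and 14.6% as lower, and no list was tested as a set. Of the private chains that pair with Il2rg, 3 of 5 were tested: Il4ra, of the IL-4 receptor, rose (1119 ± 78.4 against 871 ± 73.9 normalised reads, limma adjusted p = 0.0094), Il7r, of the IL-7 receptor, fell (1361 ± 247 against 2036 ± 219, limma adjusted p = 0.00283), and Il21r stood at 1270 ± 238 and 1501 ± 89.5 (limma adjusted p = 0.127). Il9r (127 ± 44.6 and 118 ± 29.3) and Il15ra (51.1 ± 35.4 and 59.2 ± 9.96) had too few reads for the filter. In this list 1 chain passed as higher and 1 as lower, with a median difference of -0.17. The genes of the cytokines themselves, Il2, Il4, Il7, Il9, Il15 and Il21, were at or near 0: their summed reads were at most 13.7 in any library, Il9 and Il15 had none, and Il2 had reads in only 1 library, a control, with 0.914 normalised reads.

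Receptor chains that use the same kinases without Il2rg gave 2 rises and 2 falls among 10 tested of 14. Of all tested genes 31.4% were called. Ifngr1 of the interferon gamma receptor (3128 ± 359 against 2095 ± 222) and Ifnar2 of the type I interferon receptor (640 ± 65.1 against 512 ± 47.9) rose, and Il27ra (695 ± 83.4 against 1086 ± 103) and Il6st, the shared chain of the IL-6 family (3394 ± 176 against 4203 ± 255), fell (limma adjusted p = 8.69e-04, 0.0454, 7.33e-04 and 0.00422 in that order). Among other STAT genes, Stat2 (371 ± 46.0 against 578 ± 109), Stat3 (1589 ± 182 against 2139 ± 244) and Stat4 (850 ± 101 against 1073 ± 138) fell (limma adjusted p = 0.00741, 0.00684 and 0.0400), and Stat6, the transducer of IL-4, stood at 1509 ± 99.7 and 1582 ± 177 (limma adjusted p = 0.635). The falls of Stat5b and these 3 genes were thus in the same direction, with a median of -0.25 over the 4 other STAT genes named, where all tested genes had a median of -0.01.

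Inhibitors of the chain rose in 5 and fell in 2 of 14 tested of 18, with a median difference of -0.01. The 4 with the smallest p rose: the STAT5-induced feedback genes Socs2 (7.69-fold), Cish (3.59-fold) and Socs1 (2.89-fold), and Ptpn6, the gene of the phosphatase SHP-1 (1.35-fold, limma adjusted p = 0.00288). Of the kinases, adaptors and MAP kinases near the receptor, 12 of 15 were tested, of which 1 rose and 1 fell. Syk, a tyrosine kinase better known from B cells, stood at 12.9 to 33.8 normalised reads in controls and 528 to 654 with IL-2; every control library was under the filter level of 206, so Syk was tested only through the group where it is high and had to differ. The exchange factor gene Sos1 fell (365 ± 47.6 against 475 ± 58.3, limma adjusted p = 0.0478). In the PI3 kinase branch 2 rose and 1 fell of 9 tested of 11, where 31.4% of all tested genes were called. Pik3r1, a regulatory subunit (3474 ± 482 against 2297 ± 171), and Pik3cd, the leukocyte catalytic subunit (3604 ± 197 against 2771 ± 188), rose. Pik3ca fell (943 ± 61.2 against 1102 ± 30.1).

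Of the sorting proteins and ubiquitin ligases that handle cytokine receptors after uptake, Cbl, Cblb, Itch, Stam2 and Hgs were tested and 0 passed (limma adjusted p = 0.195 to 0.841, Cbl with the smallest and an unadjusted 95% interval of -0.21 to 0.02). Stam had too few reads. Genes known as STAT5 targets, left apart from the members and inhibitors, rose in 12 and fell in 2 of 17 tested of 20, with a median of 0.48 against -0.01 over all tested genes. Those with the smallest p were Gzmb (granzyme B, 21.2-fold), Lrrc32 (GARP, 2.66-fold), the cyclin gene Ccnd2 (6658 ± 684 against 3950 ± 145) and, on the lower side, Bcl6 (75.0 ± 11.7 against 330 ± 54.4), a gene that STAT5 is known to repress. Bcl6 passed the filter only through the controls, so it had to differ, and its place among the 2 falls carries no weight. The other fall was Prdm1 (329 ± 40.6 against 565 ± 203, limma adjusted p = 0.0203). The lists were chosen with results of these samples known, so their directions are no independent evidence.

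**Figure D5:**
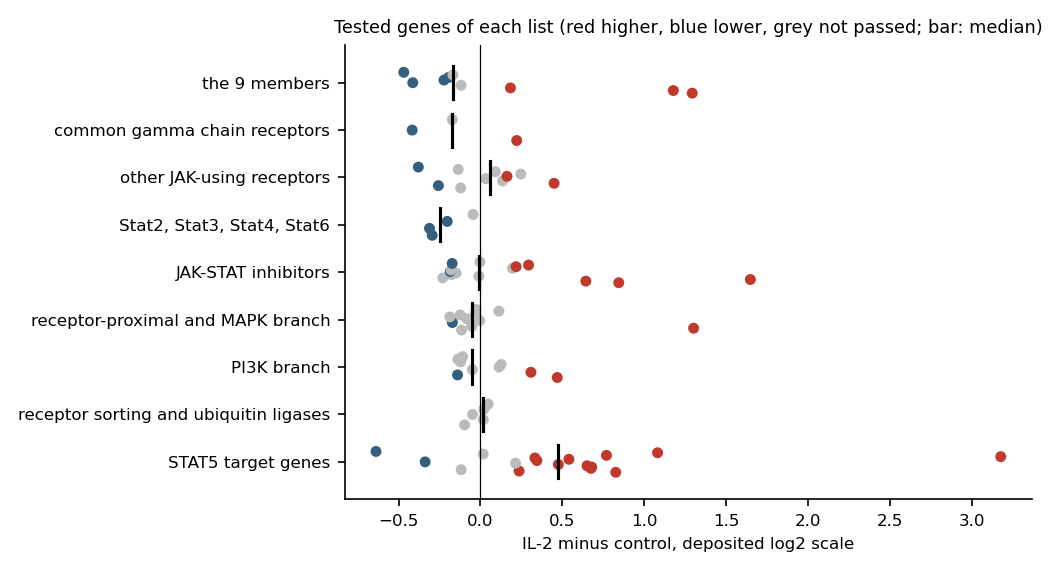
Difference between IL-2 and control on the deposited log2 scale (x axis) for each tested gene of the members and of 8 pathway lists, red where higher, blue where lower and grey where the limma test was not passed, with a bar at each list's median. The median of the STAT5 target genes is 0.48, and those of the other lists shown lie between -0.25 and 0.06.

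By likeness, the genes whose deposited values followed Il2ra most closely over the 8 libraries were Ppm1l, Nav1, Nsa2, Igf2r and Eif5a (Pearson r = 0.993 to 0.991), and 138 of 5207 genes had r over 0.95. For Stat5b they were Igf1r, Ldlrad4, Slc41a1, Ikzf3 and Slamf6 (r = 0.991 to 0.988), with 116 genes over 0.95. These r describe 8 points that fall into the 2 treatment groups, and they mostly record the step between them.

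Markers of other cell types were set beside the members. The 6 NK markers summed to 0 to 34.9 normalised reads with IL-2 and 66.1 to 164 in controls. Most of these reads were of Eomes (7.28 ± 13.1 against 58.8 ± 14.8) and Klrb1c (2.90 ± 3.53 against 36.4 ± 29.5). Klra4 and Klre1 were at 0 in every library. The CD8 T cell genes Cd8a and Cd8b1 summed to 56.2 to 90.2 with IL-2 and 53.4 to 103 in controls. The 7 B cell markers summed to 103 to 215 with IL-2 and 381 to 499 in controls, a difference carried by Cd74 (88.5 ± 40.1 against 396 ± 35.4), which passed the filter only through the controls. Cd79b stood at 60.1 ± 31.1 and 42.0 ± 14.1, and Ms4a1 had at most 2.73 normalised reads in any library. The 10 myeloid markers summed to 993 to 1248 and 1825 to 2072, most of it Ctss (847 ± 121 against 1663 ± 140). Lyz2 had 0 reads in every IL-2 library and 5.55 to 14.5 in controls, while Cst3 stood at 200 ± 12.8 and 195 ± 23.0. Cd14, Clec9a and Siglech were at 0 throughout. The neutrophil list had at most 1.04 reads in a library, with S100a9, Ly6g and Elane at 0, and the erythroid and platelet list at most 58.7. The stromal and endothelial list summed to 991 to 1181 with IL-2 and 1262 to 1537 in controls, nearly all Pecam1, with Pdgfrb and Cdh5 at 0. The part of RNA from any of these other cell types in the members' values was not tested. In bulk RNA, fewer cells of a kind and less RNA per cell cannot be told apart.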

How the data were processed

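Tregs were flow-sorted from spleen and total RNA was made into strand-specific low-input libraries, per the labels' protocols. The authors deposited 1 table of variance-stabilised values on a log2 scale. Per the submitters' processing notes the tools were Salmon and DESeq2 and the build GRCm39; no source used here gives their order, settings, annotation or filters. The lowest value, 8.69, stands for 0 reads and fixes the inverse of the transformation. Normalised reads were recovered with it, and 40 of 40 common low values (5 a library) were whole reads to 0.001, although the value that defines 1 read in each of the 8 libraries is whole by construction. Values 1 above the lowest correspond to 206 normalised reads, so differences on the deposited scale understate folds of low genes.

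Genes with at least 4 of 8 libraries at least 1 above the lowest value (5261) were fitted with limma 3.58.1 in R 4.3.3 (eBayes with trend, no covariate), and p-values were adjusted over them by the Benjamini-Hochberg method at 0.05. Folds with intervals come from the same fit on log2 of normalised reads plus 5. Exact two-sided permutation tests ran over 70 splits. The members and lists were chosen with earlier results of these data known. Named genes were the 9 members, all genes of lists of up to 6 and the 4 called genes of smallest adjusted p of longer lists, and 5 genes by likeness to Il2ra and to Stat5b; some are not reported here and are left out of the list counts. Marker list genes, and Prdm1 of the STAT5 target list, were named only as the text needed. Alternatives were no filter, a stricter filter (2 above the lowest), quantile normalization, median centring, limma without trend, robust or with array weights, log2 normalised reads, presence of Ddx3y as a covariate, leaving out each library, and 5 reads added for ratios and sums. Shared 31-base words and lengths come from GENCODE M21 transcripts, promoters from RefSeq on GRCm38.p6. Other steps used pandas 2.3.3 under Python 3.11.15, with figures from matplotlib 3.10.9.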

Additional observations from a re-analysis of the deposited data

Results flagged for a closer look

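In 28 groups of 4 values (the 9 members, the STAT5 sum and the 4 ratios in each treatment group) 3 had a library far from the rest of its group by Dixon's ratio at 0.829, where chance alone flags about 1 in 20. Il2rb stood at 10949 normalised reads in IL-2 library 44, below 13887 to 13963 in the other 3. Jak1 stood at 6877 in IL-2 library 42, above 6216 to 6297 in the others. Jak2 stood at 1716 in control library 46, below 1842 to 1861 in the others.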

How the results depend on the processing

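Il2ra, Il2rb, Jak2 and Stat5b kept their direction and stayed past the threshold under all 17 alternatives (limma adjusted p at most 3.48e-06, 9.67e-06, 7.52e-04 and 2.37e-04), and no member changed sign in any. Il2rg passed in 7 of 17, Jak3 in 9 of 17, Tyk2 in 8 of 16, Stat5a in 4 of 16 and Jak1 in 1 of 17. With no filter 2 members passed as higher and 2 as lower (limma adjusted p of Il2rg, Jak3 and Tyk2 0.0683, 0.0804 and 0.0802). Both the fit and the adjustment then ran over more genes, and their parts in this were not tested. Array weights ended the call of Tyk2 (limma adjusted p = 0.0619), the Ddx3y term that of Jak3 (0.0805) and median centring that of Il2rg (0.0567); the cause was not tested. Leaving out each library gave 2 to 3 members higher and 2 to 3 lower, and a difference for Stat5a to Stat5b of 0.21 to 0.38. With the stricter filter fewer genes were tested (Stat5a and Tyk2 were not among them), and 737 passed, 380 higher and 357 lower. Median centring changed the split of calls from 883 higher and 767 lower to 801 and 867. The labels give the groups different library numbers, so no paired analysis was possible because no number is shared. Il9r, Il15ra and Stam were too shallow for the limma fit.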
